A study of Homo sapiens with 43 samples.

Results

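Sox2 sites private to the LK2 background were peaks of the Sox2 ChIP-seq in LK2 that recurred in the derivative LK2_GFP and were absent from the Sox2 lists of 4 other lung squamous cell carcinoma lines, NCI-H520, HCC95, KNS62 and HCC2814. They were chosen by peak overlap of at least 1 bp on chromosomes 1 to 22 and X, and numbered 2831 of the 7611 Sox2 peaks of LK2. All samples were established lung squamous cell carcinoma lines grown in the same serum-containing medium. Chromatin immunoprecipitation with sequencing (ChIP-seq) was made for H3K27ac in 13 unmodified lines (those 5 and Calu-1, HARA, EBC-1, HCC2279, SQ-1, HCC2450, NCI-H2887 and LC-1/SQSF) and in LK2_GFP and LK2_DNp63. Sox2 was also mapped in LK2_DNp63, p63 in LK2_DNp63 alone, and Brn2 in LK2 and NCI-H520. The labels name LK2_GFP and LK2_DNp63 without stating the vector, its promoter, or whether a line is 1 clone. GFP is a fluorescent protein commonly used as a control, and DNp63 is a usual name for the p63 isoform of basal epithelial cells.

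Sox2 is an HMG-box transcription factor of stem and progenitor cells that bends DNA and commonly binds together with a partner factor. Its best known partners are POU-domain factors, the family of Brn2 (POU3F2), which acts in neural development. In squamous epithelia Sox2 shares many sites with p63, the lineage factor of basal cells. H3K27ac is a histone mark of active enhancers and promoters, so a peak of this mark at a Sox2 site describes active chromatin around it.

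H3K27ac lists held 16470 to 43480 peaks and Sox2 lists 4217 to 14048. Of these, LK2_DNp63 had the fewest Sox2 peaks and replicate 2 of LK2 the fewest H3K27ac peaks. No read counts come with the lists, so depth was unknown, and a site without a peak may carry signal under the authors' threshold. Only H3K27ac in LK2 and NCI-H520 had 2 libraries. Positions are on hg19 (GRCh37) and are 1-based. No gene annotation or genome of that build was used here, so sites are given by position without gene names, and H3K27ac at marker genes of the labelled cell type was not read.

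Of the 7611 Sox2 peaks of LK2, 6548 (86.0%) recurred in LK2_GFP. Among these, 2823 were also Sox2 peaks of NCI-H520, 1317 of HCC95, 1038 of HCC2814 and 960 of KNS62, and the 2831 private sites made up the other 43.2%. For comparison, 1849 recurrent sites were shared with NCI-H520 only, 894 with HCC95, KNS62 or HCC2814 and not NCI-H520, and 974 with NCI-H520 and at least 1 of these 3 lines. Another 1063 peaks of LK2 had no peak in LK2_GFP.

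The score of a peak is the authors' own value, of unstated scale, and was used for ranks within 1 list. Private sites had a median score of 79.35 (quartiles 61.66 and 105.955), against 79.22 for all Sox2 peaks of LK2 and 92.89 for sites shared with NCI-H520 only. Their median width was 683 bp, close to the 686 bp of all LK2 Sox2 peaks. Peaks without a counterpart in LK2_GFP scored lower, with a median of 59.46. In score and width private sites were thus close to the LK2 list as a whole, which includes those low-scored peaks. Among recurrent classes they had the lowest medians. Sites shared with HCC95, KNS62 or HCC2814 had 80.68 and 706.5 bp without a Sox2 peak of NCI-H520, and 101.97 and 742.5 bp with one. The median width of sites shared with NCI-H520 only was 735 bp. The choice of the sites bears on these values, and they were not tested.

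The rule allowed no overlap with a Sox2 peak of another line, so distances to such peaks depend on the choice of sites. They were not measured for another class of site. From a private site the median distance to the nearest such peak was 29576 bp (quartiles 9934.5 and 74039.5 bp). Of the private sites, 132 (4.66%) lay within 1 kb of one, and 522 (18.4%) lay more than 100 kb away. At the edge of the rule, the members with the shortest overlap with LK2_GFP shared 22 bp (chromosome 8, 60036114 to 60036662, score 59.49) and 41 bp (chromosome 1, 8477867 to 8478382, score 51.55). The members closest to a Sox2 peak of another line lay 17 bp (chromosome 5, 44691538 to 44691933, score 54.18) and 26 bp (chromosome 3, 177168959 to 177170115, score 310.1) from it. Just outside the rule, peaks at chromosome 7, 2561967 to 2562459 (score 52.22), and chromosome 16, 84172148 to 84172894 (score 88.66), were left out for overlaps of 7 and 64 bp with another line. Sites that missed a LK2_GFP peak by 79 bp (chromosome 6, 115262861 to 115263310, score 51.05) and 85 bp (chromosome 16, 11151595 to 11152198, score 62.98) were left out too.

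Bins and neighbour distances were not counted for all LK2 Sox2 peaks, so the spread given here is not shown to be particular to private sites. They fell in 2639 bins of 50 kb, of which 2461 held 1 site, 164 held 2 and 14 held 3, and 7.31% lay within 10 kb of another private site. The share of a chromosome's LK2 Sox2 peaks that was private ran from 16.3% on chromosome 19 (7 of 43) to 45.5% on chromosome 8 (262 of 576, 95% interval 41.5 to 49.6). The fullest bins, with ties ordered by summed score, lay at chromosome 8, 116450001 to 116500000, chromosome 6, 22750001 to 22800000, chromosome 4, 139000001 to 139050000, chromosome 18, 10050001 to 10100000, and chromosome 2, 179150001 to 179200000. In the bin on chromosome 6 all 3 sites were acetylated in LK2 and in NCI-H520, all 3 kept Sox2 in LK2_DNp63, and 2 carried Brn2 in LK2. In the bin on chromosome 4 all 3 sites were acetylated in LK2 and none in NCI-H520, and none carried Brn2.

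H3K27ac, which the choice of sites did not use, marked a minority of private sites in LK2 itself. An H3K27ac peak was present at 774 private sites (27.3%, 95% interval 25.7 to 29.0) in replicate 1 of LK2 and at 652 (23%, 21.5 to 24.6) in replicate 2. Of all LK2 Sox2 peaks 35.3% and 29.7% were acetylated in the same libraries, and private sites lay below that background in both. LK2_GFP acetylated 1010 private sites (35.7%, 33.9 to 37.5) and LK2_DNp63 721 (25.5%, 23.9 to 27.1), against 42.1% and 32.5% of all LK2 Sox2 peaks. Sites shared with NCI-H520 only were acetylated in 50.4% and 43.9% of cases in the libraries of LK2, above private sites in both.

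NCI-H520, which by the rule had no Sox2 peak at these sites, carried H3K27ac at 503 of them in replicate 1 (17.8%, 95% interval 16.4 to 19.2) and 360 in replicate 2 (12.7%, 11.5 to 14). All LK2 Sox2 peaks were acetylated there in 34.9% and 29.8% of cases. The other lines had lower shares at private sites. HCC2279 acetylated 7.81% of them (14.8% of all LK2 Sox2 peaks), KNS62 7.31% (19.4%), EBC-1 6.89% (15.1%) and LC-1/SQSF 6.78% (18.3%). HCC2450 and Calu-1 acetylated 6.53% each (12.9% and 13% of all LK2 Sox2 peaks), and SQ-1 6.39% (12.6%). NCI-H2887 acetylated 5.26% (12.8%), HCC95 5.19% (16.2%), HARA 5.09% (13.7%) and HCC2814 3.57% (12.3%). The 11 lines thus formed a narrow band, and both libraries of NCI-H520 lay above it.

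**Figure D1:**
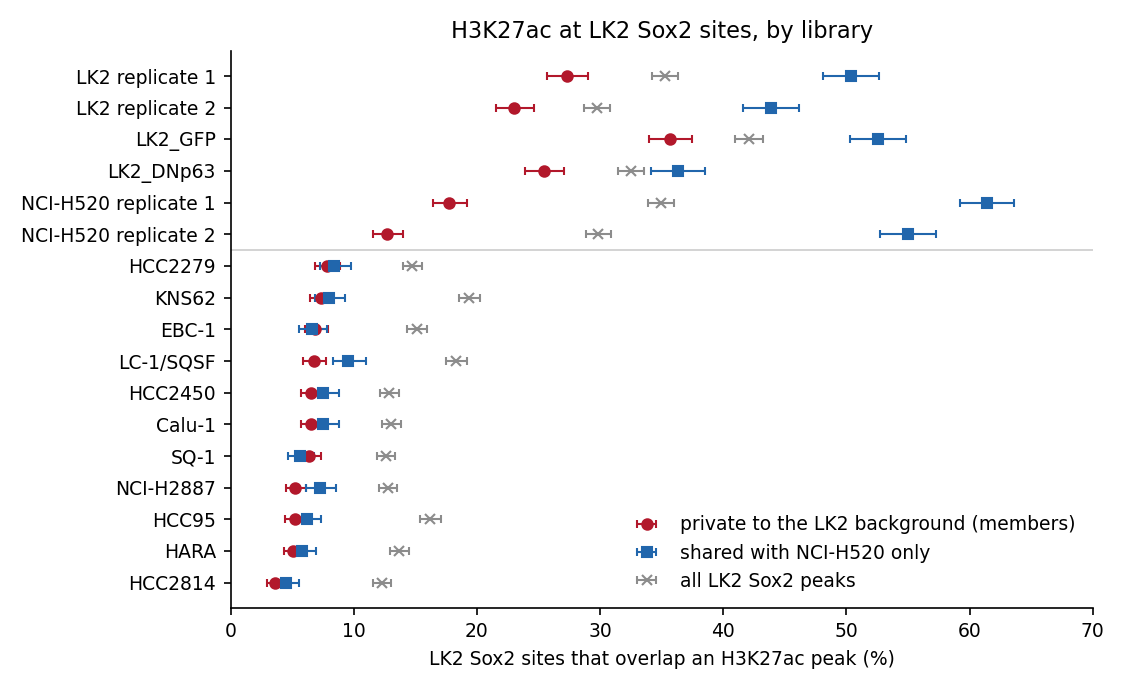
Share of LK2 Sox2 sites that overlap an H3K27ac peak (x axis, %) in each of 17 H3K27ac libraries (y axis), for the 2831 private sites, the 1849 sites shared with NCI-H520 only and all 7611 LK2 Sox2 peaks. Points are shares and bars Wilson 95% intervals, and private sites run from 12.7% to 35.7% in the LK2 and NCI-H520 libraries and from 3.57% to 7.81% in the 11 other lines.

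Lines were compared with 1 value per line, the libraries of LK2 and of NCI-H520 being averaged. The share of private sites acetylated was 25.2% in LK2 and 15.2% in NCI-H520, a mean of 20.2% ± 7.03 (SD, n = 2 lines), and 6.12% ± 1.22 in the 11 other lines (SD, n = 11 lines). The difference of 14.1 percentage points was the largest that any pair of the 13 lines gave (two-sided exact permutation test, p = 0.0128, adjusted p = 0.0321 over 5 tests by Benjamini-Hochberg, the smallest possible unadjusted p). LK2 alone lay 18.3 points above the mean of the other 12 lines (exact p = 0.0769, adjusted 0.0833), and NCI-H520 9.12 points above the mean of the 11 lines other than LK2 (exact p = 0.0833, adjusted 0.0833). Each of these was the most extreme of its assignments, but with 1 line against the rest no smaller p can be reached. The sites were chosen as Sox2 peaks of LK2 without a Sox2 peak in NCI-H520, HCC95, KNS62 or HCC2814, so lines were not exchangeable. The lead of LK2 may follow from that choice, and the p-values of these 3 differences describe rank among lines only. Over all LK2 Sox2 peaks the averaged shares were 32.5% in LK2, 32.4% in NCI-H520 and 12.3% to 19.4% in the 11 others. A lead of LK2 and NCI-H520 was thus not particular to private sites. By the centre base of the private site in place of any overlap, the 3 differences were 7.94, 7.73 and 7.52 points. By an overlap of 50% of the shorter peak they were 8.96, 9.81 and 7.48 points. At the centre base the libraries of LK2 (11.1% and 14.7%) and NCI-H520 (14.7% and 9.43%) overlapped. H3K27ac peaks of the 13 unmodified lines were merged into 114125 regions, and the share of these that a line acetylated was 15.6% for LK2 and 20.0% for NCI-H520, and the 11 others had 18.6% to 30.3%. Divided by that share, private sites had a ratio of 1.68 in LK2, 0.775 in NCI-H520 and 0.192 to 0.282 elsewhere.

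Private sites were compared with shared sites over the 8 lines without Sox2 ChIP. Those lines took no part in the choice of either class, but Sox2 peaks in other lines set the classes apart. A lower share at private sites may follow from that choice, and tests over these 8 lines cannot tell whether it does. In these lines a mean of 6.41% of private sites and 33.0% of sites shared with HCC95, KNS62 or HCC2814 were acetylated. The difference, -26.6 points ± 6.12 (SD, n = 8 lines), was negative in 8 of 8 lines (two-sided exact sign-flip permutation test, p = 0.00781, adjusted 0.0321, the smallest possible unadjusted p). Sites shared with NCI-H520 only had a mean of 7.29% there, and the difference of private from shared sites was -0.877 points ± 1.14 (SD, n = 8 lines), negative in 6 of 8 lines (exact p = 0.0781, adjusted 0.0833). That difference did not pass the threshold. It became 0.0511 points in favour of private sites (exact p = 0.852, adjusted 0.852) with equal numbers of top Sox2 peaks from every list. Over all alternatives on the same scale its adjusted p ran from 0.0391 to 0.852.

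The number of lines that acetylated a site was counted with either library of LK2 and of NCI-H520. Of the private sites, 1519 (53.7%, 95% interval 51.8 to 55.5) were acetylated in none of the 13 lines, against 38.2% of all LK2 Sox2 peaks. With LK2_GFP and LK2_DNp63 added, 1281 (45.2%, 43.4 to 47.1) still had no H3K27ac peak in any of the 15 lines, a count not given here for all LK2 Sox2 peaks. Another 605 (21.4%) were acetylated in 1 line and 368 (13%) in 2, against 17.5% and 17.7% of all LK2 Sox2 peaks. In all, 25 (0.883%) were acetylated in all 13 lines, against 3.56% of all LK2 Sox2 peaks. Any of the 11 lines other than LK2 and NCI-H520 acetylated 603 private sites (21.3%), against 36.3% of all LK2 Sox2 peaks.

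Among sites acetylated in 1 line, 359 (12.7% of private sites) were acetylated in LK2 alone and 107 (3.78%) in NCI-H520 alone, against 6.87% and 5.97% of all LK2 Sox2 peaks, whereas each other line had 2 to 27 such sites. Of the 368 sites acetylated in 2 lines, 243 (8.58% of private sites, against 12.7% of all LK2 Sox2 peaks) were acetylated in LK2 and NCI-H520, and no other partner of LK2 had more than 14 (LC-1/SQSF). Of the 898 private sites acetylated in LK2, NCI-H520 acetylated 413 (46.0%, 95% interval 42.8 to 49.3), and the other lines 8.46% (HCC2814) to 14.7% (KNS62). Of the 1933 not acetylated in LK2, NCI-H520 acetylated 149 (7.71%, 6.60 to 8.98) and the others 1.29% to 5.12%. Of all 4605 LK2 Sox2 peaks not acetylated in LK2, NCI-H520 acetylated 16.2% and the others 5.10% to 11.4%. Of all 3006 LK2 Sox2 peaks acetylated in LK2, NCI-H520 acetylated 71.4% and the others 20.8% to 32.6%, so private sites lay below the list in each line while NCI-H520 led in both. These counts were not tested. LK2 and NCI-H520 were counted with either of 2 libraries and every other line with 1.

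**Figure D2:**
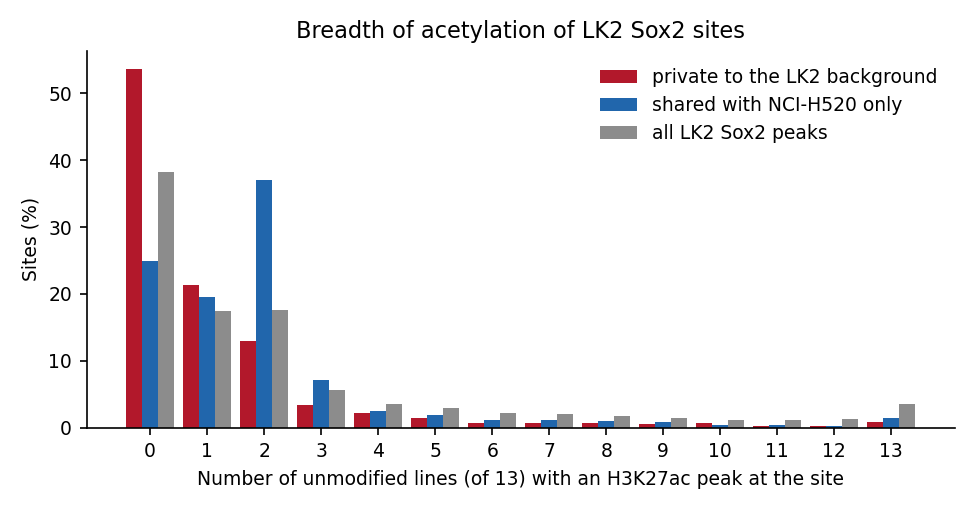
Share of sites (y axis, %) by the number of the 13 unmodified lines with an H3K27ac peak at the site (x axis), for private sites, sites shared with NCI-H520 only and all LK2 Sox2 peaks. Private sites pile up at 0 lines (53.7%), and sites shared with NCI-H520 only at 2 lines (37.0%).

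Within the LK2 background, acetylation varied between libraries. Of the private sites, 1565 (55.3%) had no H3K27ac peak in any of the 4 libraries of LK2, LK2_GFP and LK2_DNp63, 348 (12.3%) had one in all 4, and 344, 301 and 273 had one in 1, 2 and 3 libraries. The 93 sites acetylated in all 4 and in no other line included 65 that kept Sox2 in LK2_DNp63 and 42 that carried Brn2 in LK2. The same counts over all LK2 Sox2 peaks are not given here, so these do not show a trait particular to private sites.

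H3K27ac peaks lay beside the Sox2 centre more often than over it. In replicate 1 of LK2 the centre base was under an H3K27ac peak at 11.1% of private sites, and the base 500 bp to the right (higher coordinate) at 19.3%. LK2_GFP had 20.1% at the centre and 28% at 400 bp, LK2_DNp63 16.7% and 20.6% at 400 bp, and replicate 2 of LK2 14.7% and 17.9% at 500 bp to the left. In NCI-H520 the profile was flatter, with 14.7% at the centre and at most 15.3% in replicate 1, and 9.43% and 10.5% in replicate 2. Across the 11 other lines the mean was 4.56% at the centre and 2.24% to 2.54% at 5 kb. Over all H3K27ac peaks the median width was 731 bp in replicate 1 of LK2, 1202 bp in replicate 2, 677 bp in LK2_GFP and 864 bp in LK2_DNp63. In NCI-H520 it was 1329 and 1206 bp. The part of peak width in the dip was not tested. In LK2_GFP the share of sites with any overlap was 35.7%, beside 20.1% at the centre base.

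**Figure D3:**
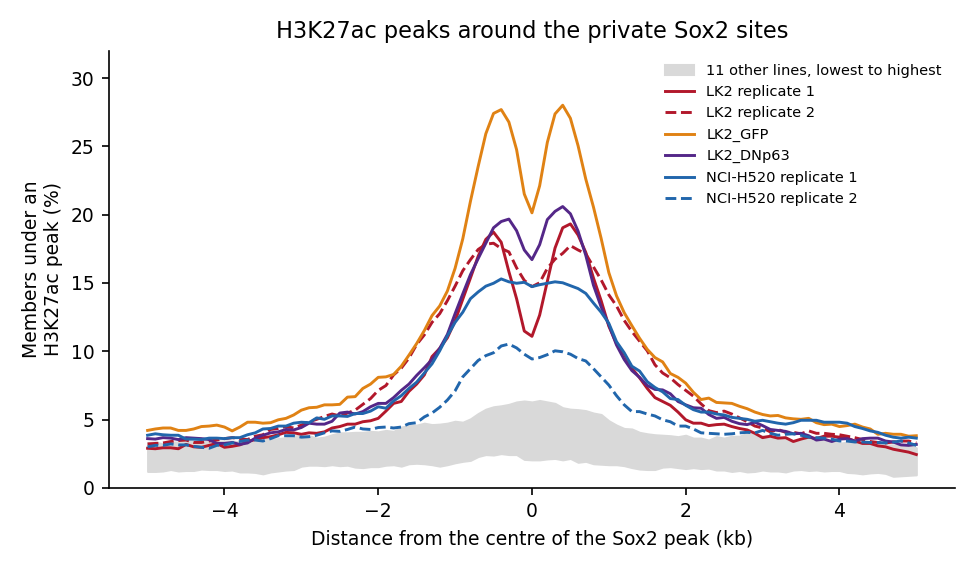
Share of the 2831 private sites under an H3K27ac peak (y axis, %) by distance from the centre of the Sox2 peak (x axis, kb). Lines are single libraries and the grey band spans the 11 other lines. LK2_GFP peaks at 28% beside a centre value of 20.1%, and replicate 1 of LK2 at 19.3% beside 11.1%.

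Brn2 ChIP in LK2 found a peak at 639 private sites (22.6%, 95% interval 21.1 to 24.1). This share is close to the 23.7% of all LK2 Sox2 peaks, but those include the 1063 peaks without a LK2_GFP peak, of which 4.33% carried Brn2. Recurrent sites shared with HCC95, KNS62 or HCC2814 carried Brn2 in 21.7% of cases without and 29.9% with a Sox2 peak of NCI-H520. Private sites were thus close to the former class, and no class was tested against another. Sites shared with NCI-H520 only carried Brn2 in 34.5% of cases (32.3 to 36.6). Brn2 overlap was higher at higher LK2 Sox2 scores, and the classes differed in score. When the 7611 peaks were ranked by score into 4 equal groups, private sites carried Brn2 in 13%, 15%, 24.2% and 40.5% of cases from the lowest group to the highest. Sites shared with NCI-H520 only had 19.1%, 22.2%, 29.9% and 51.8%, higher in each of the 4 groups, with intervals apart from those of private sites in the second and the highest. Sites shared with HCC95, KNS62 or HCC2814 had 13.7%, 15.2%, 20.6% and 43.5%, close to private sites. In NCI-H520, whose Brn2 list held 1298 peaks, Brn2 was found at 4 private sites (0.141%, 0.0550 to 0.363), against 1.24% of all LK2 Sox2 peaks.

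Private sites with Brn2 were acetylated more often in every LK2-background library. The 639 sites with Brn2 were acetylated in 36.6% of cases (95% interval 33.0 to 40.4) in replicate 1 of LK2, and the 2192 without it in 24.6% (22.9 to 26.5). The corresponding values were 35.4% and 19.4% in replicate 2, 49.3% and 31.7% in LK2_GFP, and 34.7% and 22.8% in LK2_DNp63. The intervals of the 2 classes, which cover counting error only, did not overlap in any of these 4 libraries. All LK2 Sox2 peaks showed gaps as large or larger, so the contrast is not a result about private sites. With and without Brn2 they were acetylated in 47.6% and 31.4% of cases in replicate 1 of LK2, 44.7% and 25.1% in replicate 2, 57.3% and 37.4% in LK2_GFP, and 43.6% and 29.1% in LK2_DNp63. In NCI-H520 private sites with and without Brn2 lay closer, at 21.3% and 16.7% in replicate 1 and 14.6% and 12.2% in replicate 2. Over all LK2 Sox2 peaks these shares were 45.3% and 31.7%, and 37.9% and 27.3%. The 11 other lines acetylated 4.23% to 7.82% of sites with Brn2 and 3.38% to 7.80% of sites without it, ranges that coincide.

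Sites with Brn2 also had a higher median score (100.01 against 75.0) and were wider (775 against 665 bp). Within score groups the order held in the LK2 libraries. In replicate 1 of LK2, sites with Brn2 were acetylated in 32.1%, 28.7%, 38.7% and 40.2% of cases from the lowest score group to the highest, and sites without it in 21.0%, 23.6%, 25.2% and 31.4%. In LK2_GFP the values were 48.8%, 50.4%, 46.2% and 51.5% with Brn2 and 31.4%, 30.0%, 30.4% and 37.6% without it. Acetylation in LK2_GFP thus changed little with score among sites with Brn2. Single libraries were compared here, so no test was made, and the intervals cover counting error only.

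Sox2 in LK2_DNp63 overlapped 1092 private sites (38.6%, 95% interval 36.8 to 40.4), and 1739 had no Sox2 peak there. Of all LK2 Sox2 peaks 39.6% were kept, a share that includes the 1063 peaks without a LK2_GFP peak, of which 8.09% were kept. Private sites had to recur in LK2_GFP, so the 2 shares are not alike in that respect. Each class of recurrent shared site had a higher share than private sites, by little for sites shared with NCI-H520 only. The Sox2 list of LK2_DNp63 was the shortest, and a site called lost here is only one without a listed peak. Sites shared with NCI-H520 only were kept in 40.3% of cases, and those shared with HCC95, KNS62 or HCC2814 in 53.2% without and 62.7% with a Sox2 peak of NCI-H520. Retention was higher at higher scores. Private sites were kept in 21.2%, 26.7%, 39.1% and 71.9% of cases from the lowest score group to the highest, beside 16.8%, 26.0%, 39.7% and 75.8% of all LK2 Sox2 peaks. The values for all peaks again include those without a LK2_GFP peak. Sites shared with NCI-H520 only were kept less often at each step, in 15.2%, 21.4%, 31.7% and 69.0%, although their overall share is slightly higher. The intervals of these classes overlapped in all 4 groups. Sites shared with HCC95, KNS62 or HCC2814 were kept most often, in 30.7%, 40.7%, 53.5% and 87.3%, and there the intervals lay above those of private sites in all 4 groups.

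**Figure D4:**
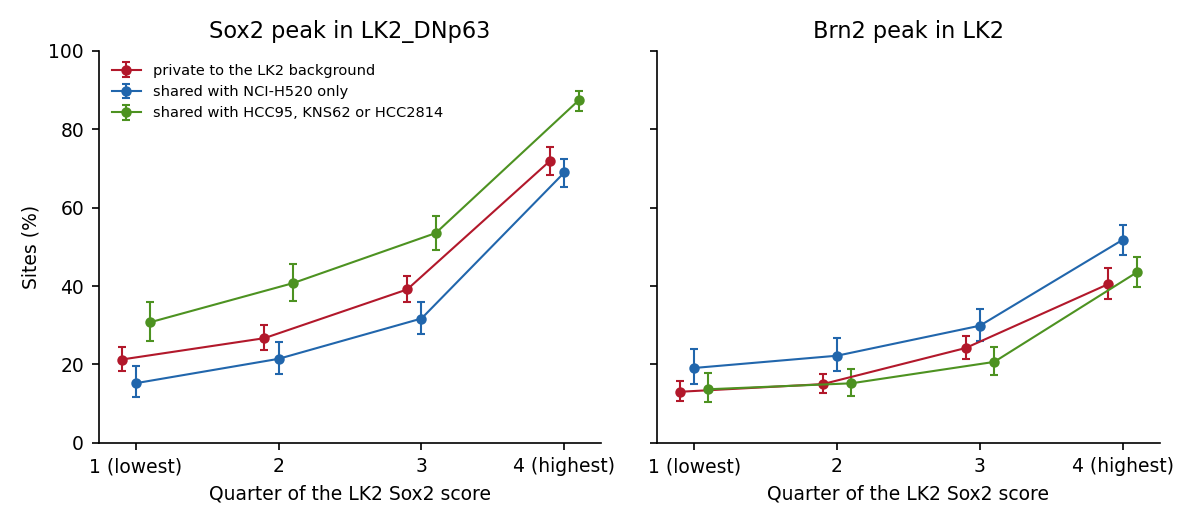
Share of sites (y axis, %) with a Sox2 peak in LK2_DNp63 (left) or a Brn2 peak in LK2 (right), by group of LK2 Sox2 score from lowest to highest (x axis), for 3 classes of site. Points are shares and bars Wilson 95% intervals; private sites rise from 21.2% to 71.9% on the left and from 13% to 40.5% on the right.

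Kept and lost private sites differed in H3K27ac most in LK2_DNp63 itself. There 402 of the 1092 kept sites (36.8%, 95% interval 34.0 to 39.7) and 319 of the 1739 lost sites (18.3%, 16.6 to 20.2) were acetylated. Over all LK2 Sox2 peaks the shares were 46.4% of kept and 23.5% of lost sites, among sites shared with NCI-H520 only 54.2% and 24.2%, and among those shared with HCC95, KNS62 or HCC2814 52.4% and 37.3%. The gap was thus not particular to private sites. In LK2_GFP 41.8% of kept and 31.8% of lost private sites were acetylated (52.0% and 35.6% of all LK2 Sox2 peaks). The private values were 32.1% and 24.4% in replicate 1 of LK2 and 25.8% and 21.3% in replicate 2. In NCI-H520 lost sites had the higher share in both libraries, with 16.6% of kept and 18.5% of lost sites in replicate 1 and 9.89% and 14.5% in replicate 2. Over all LK2 Sox2 peaks kept sites had the higher share there, with 38.1% and 32.9% in replicate 1 and 31.4% and 28.8% in replicate 2. Whether the direction differs between private and other sites was not tested. Brn2 of LK2 was present at 32.6% of kept (29.9 to 35.4) and 16.3% of lost sites (14.6 to 18.1), near the 36.3% and 15.5% of all LK2 Sox2 peaks.

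The difference in LK2_DNp63 was present at every level of score. Among kept sites 35.0%, 35.1%, 36.0% and 38.8% were acetylated in LK2_DNp63 from the lowest score group to the highest, and among lost sites 20.5%, 17.8%, 17.0% and 18.0%. In LK2_GFP kept sites were acetylated in 35.0%, 40.0%, 41.3% and 45.3% of cases from the lowest group to the highest and lost sites in 33.3%, 30.6%, 29.7% and 37.7%, with intervals apart in the third group alone. Of the 457 kept sites acetylated in LK2_GFP, 342 (74.8%, 70.7 to 78.6) were acetylated in LK2_DNp63. Of the 553 lost sites acetylated in LK2_GFP, 288 (52.1%, 47.9 to 56.2) were. Over all private sites acetylated in LK2_GFP this share was 62.4% (59.3 to 65.3). Over all LK2 Sox2 peaks acetylated in LK2_GFP it was 68.6% (66.9 to 70.2), above private sites as a whole. Kept and lost values of this share are not given here for all LK2 Sox2 peaks. Counted by H3K27ac peaks and not by Sox2 sites, 73.5% of all LK2_GFP peaks had a counterpart in LK2_DNp63. In the other direction, 60 kept and 31 lost sites were acetylated in LK2_DNp63 and not in LK2_GFP. With 1 library for each derivative the 2 were not tested against each other, and depth and line cannot be told apart.

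**Figure D5:**
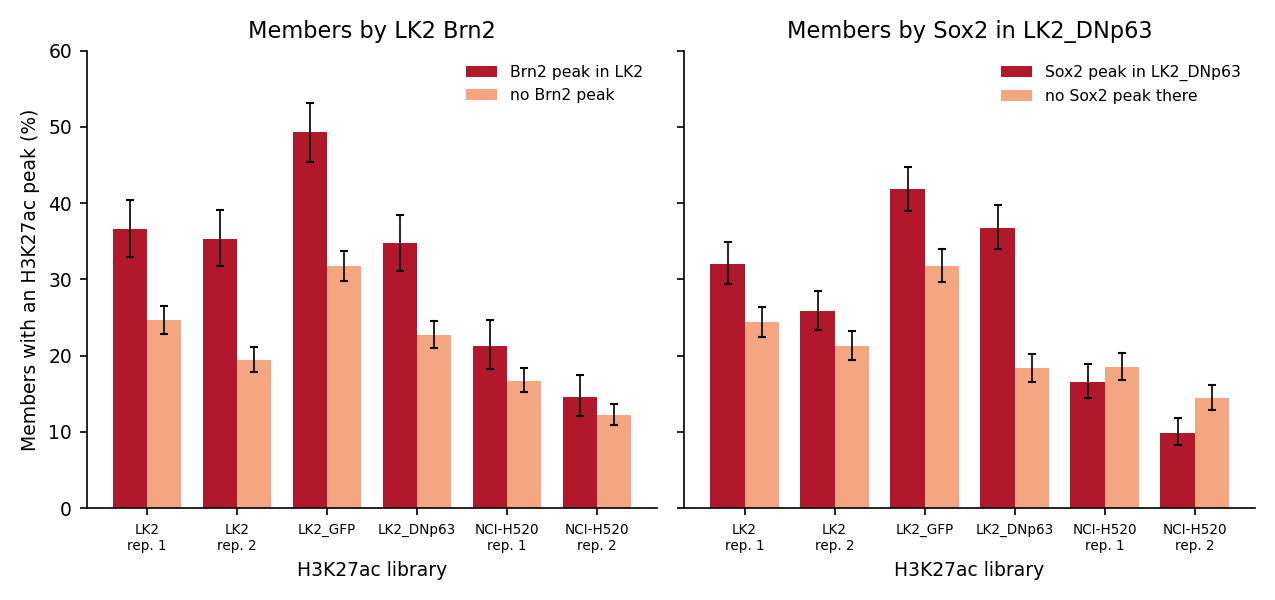
Share of private sites with an H3K27ac peak (y axis, %) in 6 libraries (x axis), for sites with and without a Brn2 peak in LK2 (left) and sites with and without a Sox2 peak in LK2_DNp63 (right). Bars start at 0 and carry Wilson 95% intervals. Sites with Brn2 reach 49.3% in LK2_GFP against 31.7% without, and in LK2_DNp63 kept sites reach 36.8% against 18.3% of lost sites.

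Peaks of p63 in LK2_DNp63 were rare at private sites. They overlapped 38 of them (1.34%, 95% interval 0.980 to 1.84), against 2.30% of all LK2 Sox2 peaks and 6.60% of sites shared with HCC95, KNS62 or HCC2814 and not NCI-H520. Of the 38, 29 kept Sox2, and so did 134 of all 175 LK2 Sox2 peaks with p63. Acetylation is not given here for those 175, so the counts below do not show a trait particular to private sites. Of the 38 private sites, 28 were acetylated in LK2_GFP, which has no p63 list here, and 30 in LK2_DNp63. They were also acetylated in 23 cases in replicate 1 and 18 in replicate 2 of LK2, and most had H3K27ac in LK2_GFP as well as in LK2_DNp63. The highest scored of them lay at chromosome 3, 55223522 to 55224372, chromosome 9, 75602532 to 75603466, and chromosome 4, 189321480 to 189322114. The first was acetylated in LK2 alone of the 13 lines, the next in LK2 and LC-1/SQSF, and the last in none of them but in LK2_GFP and LK2_DNp63.

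The 10 private sites with the highest score showed the range of these patterns, since 7 were acetylated in at least 1 LK2-background library, 7 carried Brn2 and 8 kept Sox2 in LK2_DNp63. In the highest score group of all LK2 Sox2 peaks 45.3% carried Brn2 and 75.8% kept Sox2. The counts among 10 sites thus do not show a trait particular to private sites. The top private site, at chromosome 8, 63213674 to 63215511, ranked 10 in the LK2 Sox2 list with a score of 615.01. It was acetylated in all 4 LK2-background libraries and in NCI-H520, carried Brn2 in LK2, kept Sox2, and lay 533406 bp from the nearest Sox2 peak of another line. The next, at chromosome 8, 34503557 to 34504521 (score 490.65), carried Brn2 but no H3K27ac peak in any line, and was lost in LK2_DNp63. At chromosome 12, 46056991 to 46058158 (score 485.6), LK2, NCI-H520 and LK2_GFP had an H3K27ac peak and LK2_DNp63 had neither H3K27ac nor Sox2. The site at chromosome 7, 34525932 to 34526742 (score 468.48), was acetylated in LK2_DNp63 alone and carried Brn2.

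Further down the same ranking, the site at chromosome 2, 176098386 to 176099768 (score 458.2), was acetylated in replicate 1 of LK2 only, carried Brn2 in LK2 and kept Sox2 in LK2_DNp63. Sites at chromosome 17, 651633 to 653119 (score 458.11), and chromosome 8, 96510882 to 96511841 (score 445.91), kept Sox2 in LK2_DNp63 but had neither Brn2 nor H3K27ac in any library. The site at chromosome 1, 162891872 to 162893120 (score 440.98), was acetylated in LK2, NCI-H520 and LK2_GFP and kept Sox2 without H3K27ac in LK2_DNp63. Among these high-scored sites, some had H3K27ac in every LK2-background library and others in no library.

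The 5 highest scored sites acetylated in all 4 LK2-background libraries and in no other line each carried Brn2 and kept Sox2. They lay at chromosome 1, 182941719 to 182942751 (score 446.26), chromosome 15, 52515369 to 52516324 (427.75), chromosome 5, 44327038 to 44328541 (400.33), chromosome 11, 93652335 to 93653320 (397.51), and chromosome 3, 55223522 to 55224372 (336.65). All 5 ranked within the top 159 of the LK2 Sox2 list. The highest scored sites acetylated in all 13 lines ranked lower, from 1954 to 2464, and lay at chromosome 9, 94123176 to 94123781 (113.56), chromosome 8, 135844351 to 135845903 (104.22), chromosome 17, 38136399 to 38137161 (103.95), chromosome 1, 182993524 to 182994274 (103.1), and chromosome 1, 181072936 to 181073866 (100.8). Of these 5, 3 carried Brn2 and 4 kept Sox2. Neither set of 5 was compared with all LK2 Sox2 peaks of like score.

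In the highest score group 30 of the 167 lost sites had an H3K27ac peak in LK2_DNp63. Besides the sites on chromosomes 8 and 12 above, the highest scored sites without Sox2 in LK2_DNp63 lay at chromosome 1, 167237193 to 167238338 (332.12), chromosome 8, 116494349 to 116495360 (331.41), and chromosome 5, 16271694 to 16272582 (315.8). The first pair were acetylated in both LK2 libraries and LK2_GFP, not in LK2_DNp63, and carried Brn2. The last had no H3K27ac peak in any line and no Brn2. Of these 5 lost sites, 3 were acetylated in LK2 and LK2_GFP, and none was acetylated in LK2_DNp63.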

How the data were processed

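The 27 deposited peak lists were used, 1 per sample. The other 16 samples in the labels are inputs and were not analysed here. Per the submitters' processing notes, the authors aligned reads with Bowtie2 to hg19 (GRCh37). Peak names begin with MACS, while its version, its cutoff and how inputs entered were not stated in what was used. The score in the deposited lists is the authors' value per peak, of unstated scale, from 50 upwards, and was used only for ranks within a list. Per the labels' protocols, Brn2 chromatin was prepared differently (2 cross-linkers, micrococcal nuclease). Peaks outside chromosomes 1 to 22 and X (2092 of 652792) were left out.

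Python 3.11.15 with scipy 1.17.1 computed overlaps (1 bp), Wilson 95% intervals and exact permutation tests in which lines were the units. The intervals take sites as units within a library and so cover counting error only. The 5 p-values were adjusted together (Benjamini-Hochberg, threshold 0.05). Each test used 1 value per line, so the p-values rest on differences between lines and do not measure spread between libraries. Sox2 peaks in some of these lines chose the sites, so lines were not exchangeable under the choice. Labels do not say that libraries come from separate cultures. Overlap code was tested on simulated intervals. Members, lists and tests were chosen with earlier results of these data known. Named sites are the highest scored of each class (10 among all members; 5 each with acetylation in all 4 LK2-background libraries and no other line, with Brn2, with both, with acetylation in 13 lines, and without Sox2 in LK2_DNp63; 3 with p63), the members at each edge of the choice, and the 5 bins of 50 kb with most members, whose ties were ordered by summed score after seeing the data. Gene names, motifs and sequences need hg19, which was not used here.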

Additional observations from a re-analysis of the deposited data

How the results depend on the processing

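The 24 alternatives kept the direction and the side of the threshold of the differences for LK2 with NCI-H520 and for sites shared with HCC95, KNS62 or HCC2814. They kept the direction of those for LK2 and for NCI-H520 alone, which cannot pass the threshold in this design. The choice of sites by Sox2 peaks bears on all of these differences under every alternative, so their stability is not independent evidence. On the same scale the differences for LK2 with NCI-H520, LK2, NCI-H520 and the shared sites ran from 7.94 to 17.5, 7.73 to 22.9, 6.59 to 12.4 and -27.4 to -17.8 points, and the centre base gave the lowest for LK2 with NCI-H520 and for LK2. Without a replicate of LK2 or NCI-H520 the first 3 ran from 12.8 to 15.4, 16.1 to 20.5 and 6.59 to 11.6 points. The difference of private sites from sites shared with NCI-H520 only, -0.877 points, passed the threshold when H3K27ac had to cover 50% of the shorter peak (-1.0036 points) or when no Sox2 peak of another line lay within 1000 bp (-1.11 points), with an adjusted exact permutation p of 0.0391 in both. It reversed to 0.0511 points with the same number of top Sox2 peaks in every list, and the cause was not tested.

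The 2831 private sites became 1418 in the upper 50% of the LK2 list by score and 4680 when NCI-H520 was not asked about. The share kept in LK2_DNp63 (38.6%) was 52.9% in that upper part, 45.2% with equal numbers of top Sox2 peaks, 32.1% without the LK2_GFP condition, and 21.2%, 26.7% and 71.9% in score groups 1, 2 and 4. The share with Brn2 in LK2 (22.6%) was 31.0%, 27.2% and 18.8% under the first 3 of these, and 5.62% with as many top Brn2 peaks as NCI-H520 has. Acetylation in LK2_GFP (35.7%) and LK2_DNp63 (25.5%) was 25.1% and 19.3% with the 50% overlap, 20.1% and 16.7% at the centre base, and 21.9% and 16.6% with equal numbers of top H3K27ac peaks. It was 38.01% and 28% in the upper part by score, 40.1% and 28.8% with equal top Sox2 peaks, and 32.3% and 23.8% without the LK2_GFP condition. With as many top LK2_GFP peaks as LK2_DNp63 has, chosen after seeing the data, LK2_GFP had 33.6%. No paired analysis was possible because only LK2 and NCI-H520 have numbered replicates, which were averaged per line, and the other lines have 1 library. Depth is unknown, so a missing peak does not show that signal is absent.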
